A study of Homo sapiens with 12 samples.

Results

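The genes described here are 10 markers and effectors of dividing cells: MKI67, TOP2A, HMMR, DLGAP5, NUSAP1, PSRC1, CKAP2L, GTSE1, FAM64A (now named PIMREG) and UBE2C. They are 10 of the 26439 genes of the table and were chosen by name, with their values after CXCR7 knockdown in these libraries already known, so that everything below on the knockdown itself is a description of these genes. All 10 passed the filter on low values in both cell lines. RNA-seq was done on 12 libraries from 2 human prostate cancer cell lines, C4-2B-EnzR and LNCaP-EnzR, which are derivatives of C4-2B and LNCaP grown in enzalutamide, an androgen receptor inhibitor, until they became resistant to it (labelled MDVr). Each line was infected with a lentivirus carrying a short hairpin RNA against CXCR7 (shCXCR7) or with the control vector (LKO), with 3 libraries a group, and RNA was taken 4 days after infection. All cells were kept in 10% serum, C4-2B-EnzR with 10 µM enzalutamide and LNCaP-EnzR with 2 µM enzalutamide. CXCR7 (gene symbol ACKR3) is an atypical chemokine receptor, and which hairpin was used for these libraries is not given in the sources used here. Because each line had its own drug dose and its own culture, line, dose and culture cannot be told apart, and since nothing says that replicates were separate cultures, p-values measure only the spread between these libraries.

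Cells that divide switch on a wave of genes as they pass from S phase through G2 into mitosis, and the RNA of most of these genes falls again when cells leave the cycle. Proteins of this wave condense and untangle the chromosomes, build and steer the mitotic spindle, and then mark cyclins and securin for destruction so that the chromatids can part. Pathologists stain for the MKI67 and TOP2A proteins to estimate how many cells of a tumor are cycling. In bulk RNA, fewer cycling cells and less RNA in each cycling cell cannot be told apart.

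Many genes of this wave carry a cell cycle genes homology region (CHR), a short element near the start site that the DREAM complex binds in resting cells and that B-MYB and FOXM1 complexes use in cycling cells, often with CCAAT boxes, which NF-Y binds. The promoters of 8 of the 10 genes were in the RefSeq table (GRCh38.p14, 250 bases before to 50 bases after the start site), and those of FAM64A and UBE2C were not. The 4 stretches below are shown because their matches lie outside every exon of GENCODE release 44, with the CHR core (TTTGAA or TTCGAA, either strand) and CCAAT (either strand, so that ATTGG is CCAAT on the other strand) in capitals, each read 5′ to 3′ in the direction of the gene.
MKI67 (chr10:128126424-128126533, minus strand): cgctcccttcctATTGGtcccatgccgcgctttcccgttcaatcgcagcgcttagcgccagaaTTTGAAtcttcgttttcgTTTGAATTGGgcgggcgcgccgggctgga
TOP2A (chr17:40417937-40418106, minus strand): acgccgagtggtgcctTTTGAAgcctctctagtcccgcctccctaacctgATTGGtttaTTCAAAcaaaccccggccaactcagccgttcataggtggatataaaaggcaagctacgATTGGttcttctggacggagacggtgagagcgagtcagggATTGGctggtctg
GTSE1 (chr22:46296760-46296869, plus strand): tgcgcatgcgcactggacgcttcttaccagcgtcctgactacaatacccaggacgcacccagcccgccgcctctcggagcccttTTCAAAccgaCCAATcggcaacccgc
DLGAP5 (chr14:55191610-55191735, minus strand): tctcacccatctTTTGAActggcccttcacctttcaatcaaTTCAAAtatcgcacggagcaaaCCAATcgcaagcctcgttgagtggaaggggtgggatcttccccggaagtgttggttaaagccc
The MKI67 stretch holds 2 CHR cores, beginning 47 and 29 bases upstream, and the second shares 1 base with a CCAAT box. In TOP2A the cores begin 194 and 151 bases upstream, among CCAAT boxes at 160, 93 and 53 bases. GTSE1 has 1 core at 26 bases and a CCAAT box at 16 bases, and DLGAP5 has cores at 138 and 109 bases upstream.

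A CHR core was found in 8 of the 8 promoters and a CCAAT box in 8 of the 8. Among all 27305 promoters of the table, counted once per gene symbol, 16.6% held a CHR core, 35.7% a CCAAT box and 6.58% both. PSRC1 was the only one of the 8 whose core was TTCGAA, 29 bases upstream, and NUSAP1 had its core 13 bases downstream of the start site rather than before it. HMMR held 2 cores next to each other, 28 and 22 bases upstream, and 5 CCAAT matches. Of the 36 other G2/M genes with a promoter in the table, 24 (66.7%) held a CHR core. These are matches of letters in a window, and no binding was measured.

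**Figure D1:**
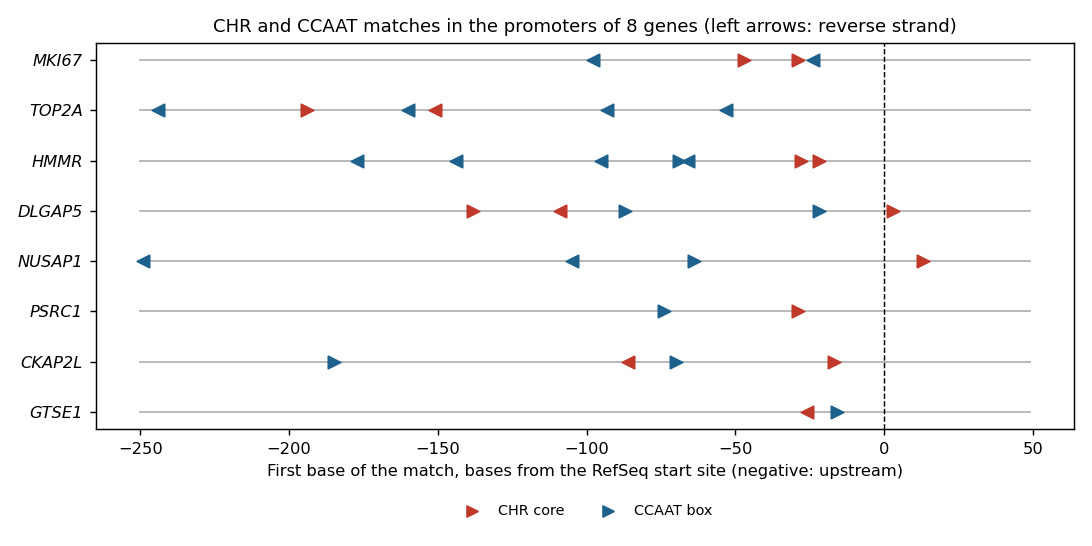
Matches to the CHR core (red) and the CCAAT box (blue) in the promoters of 8 genes, by the distance in bases of the first base of the match from the RefSeq start site (dashed line); arrows to the left are matches on the reverse strand. Every promoter holds at least 1 match of each kind, and the cores of MKI67, HMMR, PSRC1, CKAP2L and GTSE1 include one within 30 bases upstream of the start site.

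The knockdown was visible in the targeted gene itself. ACKR3 stood at 22.3, 23.7 and 19.0 RPKM in shCXCR7 and 84.01, 86.5 and 85.6 RPKM in LKO libraries of C4-2B-EnzR (replicates 1, 2 and 3 in this order here and below), and at 55.7, 50.5 and 42.1 RPKM in shCXCR7 and 122, 117 and 111 RPKM in LKO libraries of LNCaP-EnzR. Values are RPKM, reads scaled to gene length and to the mapped reads of the library, rescaled within each line so that the typical gene has a ratio of 1 between libraries. Reads in genes ran from 6380758 to 9832417 a library, and the 10 genes had 41 to 2708 reads each in a library, where counting error alone is about 30.6% and 3.77% (95% level, which covers counting error only). LNCaP-EnzR shCXCR7 replicate 3 stood apart: 27.4% of its mapped reads lay in genes, against 67.0% to 75.5% in the other 11 libraries, and genes at 0 in all others had a median of 0.234 deposited RPKM there. On the rescaled values that background is 0.475 RPKM, from 6.61% of the value of UBE2C to 25.2% of that of GTSE1 in that library, so the counts and lists of LNCaP-EnzR and the comparisons that use this library are also given without it. The log2 fold change of ACKR3 in LNCaP-EnzR was -1.24 ± 0.11 with it and -1.13 ± 0.06 without it.

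In C4-2B-EnzR cells all 10 genes were lower after CXCR7 knockdown, by a median of -1.73 on the log2 scale over the 10, beside 0.00 over all 13352 genes tested. The fall ran from -0.98 for PSRC1 to -2.19 for GTSE1. For each of the 10 genes the highest shCXCR7 library lay below the lowest LKO library, which held in this direction for 27.1% of all genes. All 10 passed an adjusted p under 0.05 as lower (limma, Benjamini-Hochberg over all genes), as did 21.3% of all genes tested, while 21.2% of all genes passed as higher. Since this contrast chose the genes, nothing is read from these counts, and log2 fold changes are given as estimate ± standard error on the log2(RPKM + 0.25) scale.

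Of the genes that act on chromosomes, MKI67 (chr10:128096659-128126423, minus strand, 15 exons in the canonical transcript, GRCh38) encodes Ki-67, which coats mitotic chromosomes and keeps them from sticking together. It had 2.78, 3.05 and 2.86 RPKM in shCXCR7 libraries, against 10.5, 12.8 and 14.5 RPKM in LKO libraries, 22.99% of the LKO mean. The 3 shCXCR7 libraries were within a narrow band, and the log2 fold change of -2.02 ± 0.12 had the smallest standard error of the 10. TOP2A (chr17:40388525-40417896, minus strand, 35 exons) encodes topoisomerase II alpha, which untangles sister DNA and is the target of etoposide and doxorubicin. TOP2A stood at 6.91, 8.68 and 5.67 RPKM in shCXCR7 and 19.8, 31.02 and 37.2 RPKM in LKO libraries, a log2 fold change of -1.99 ± 0.23. LKO replicate 1 was the lowest of its group for TOP2A, as for the other 9 genes, and still more than any shCXCR7 library.

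The genes of the spindle fell by unequal amounts. HMMR (chr5:163460203-163491941, plus strand, 18 exons) encodes RHAMM, a hyaluronan receptor that inside the cell binds spindle microtubules, and it had 6.497, 7.24 and 5.33 RPKM after knockdown, against 10.1, 14.9 and 17.9 RPKM in LKO libraries. Its log2 fold change was -1.11 ± 0.20. DLGAP5 (chr14:55148112-55191608, minus strand, 19 exons) encodes HURP, which stabilises the microtubule fibers that reach the kinetochores. The DLGAP5 level was 4.202, 6.26 and 3.77 RPKM in shCXCR7 and 8.55, 14.04 and 19.03 RPKM in LKO libraries, with the largest standard error of the 10 (-1.46 ± 0.29). NUSAP1 (chr15:41320794-41381050, plus strand, 11 exons), whose product crosslinks microtubules near chromatin, had 8.75, 9.904 and 7.94 RPKM, against 19.8, 28.4 and 36.2 RPKM in LKO libraries, and a log2 fold change of -1.60 ± 0.20.

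PSRC1 (chr1:109279556-109283186, minus strand, 8 exons) encodes DDA3, which brings the depolymerising kinesin KIF2A to the spindle. PSRC1 had 6.07, 7.097 and 5.14 RPKM in shCXCR7 and 10.04, 12.03 and 15.02 RPKM in LKO libraries, and at -0.98 ± 0.16 it changed least of the 10 genes. CKAP2L (chr2:112736349-112764664, minus strand, 9 exons), a spindle microtubule protein, was the gene of lowest level in this line. CKAP2L stood at 0.879, 1.296 and 0.908 RPKM, against 2.84, 4.16 and 5.47 RPKM in LKO libraries, 24.8% of the LKO mean, with a log2 fold change of -1.76 ± 0.23.

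Among the genes that govern G2 and mitotic exit, GTSE1 (chr22:46296870-46330810, plus strand, 12 exons) encodes a microtubule-binding protein of G2 and mitosis that also restrains p53. GTSE1 showed the lowest fold change of the 10: 2.55, 3.03 and 1.99 RPKM in shCXCR7 and 10.2, 11.9 and 15.1 RPKM in LKO libraries, 20.4% of the LKO mean (-2.19 ± 0.18). FAM64A (chr17:6444441-6451469, plus strand, 6 exons) encodes a nuclear protein of mitosis, and it had 2.99, 4.02 and 2.22 RPKM, against 10.5, 14.5 and 17.3 RPKM in LKO libraries (-2.11 ± 0.23). UBE2C (chr20:45812576-45816957, plus strand, 6 exons) encodes the ubiquitin-conjugating enzyme that works with the anaphase-promoting complex on cyclin B and securin. It was the gene of highest mean level per length in both C4-2B-EnzR groups, at 9.39, 11.6 and 6.31 RPKM in shCXCR7 and 22.9, 26.7 and 42.1 RPKM in LKO libraries (-1.71 ± 0.26). The 95% intervals of the log2 fold changes of PSRC1 (-1.36 to -0.61) and HMMR (-1.58 to -0.64) lay above that of GTSE1 (-2.60 to -1.78), a comparison of genes read from the same libraries and given without a test.

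**Figure D2:**
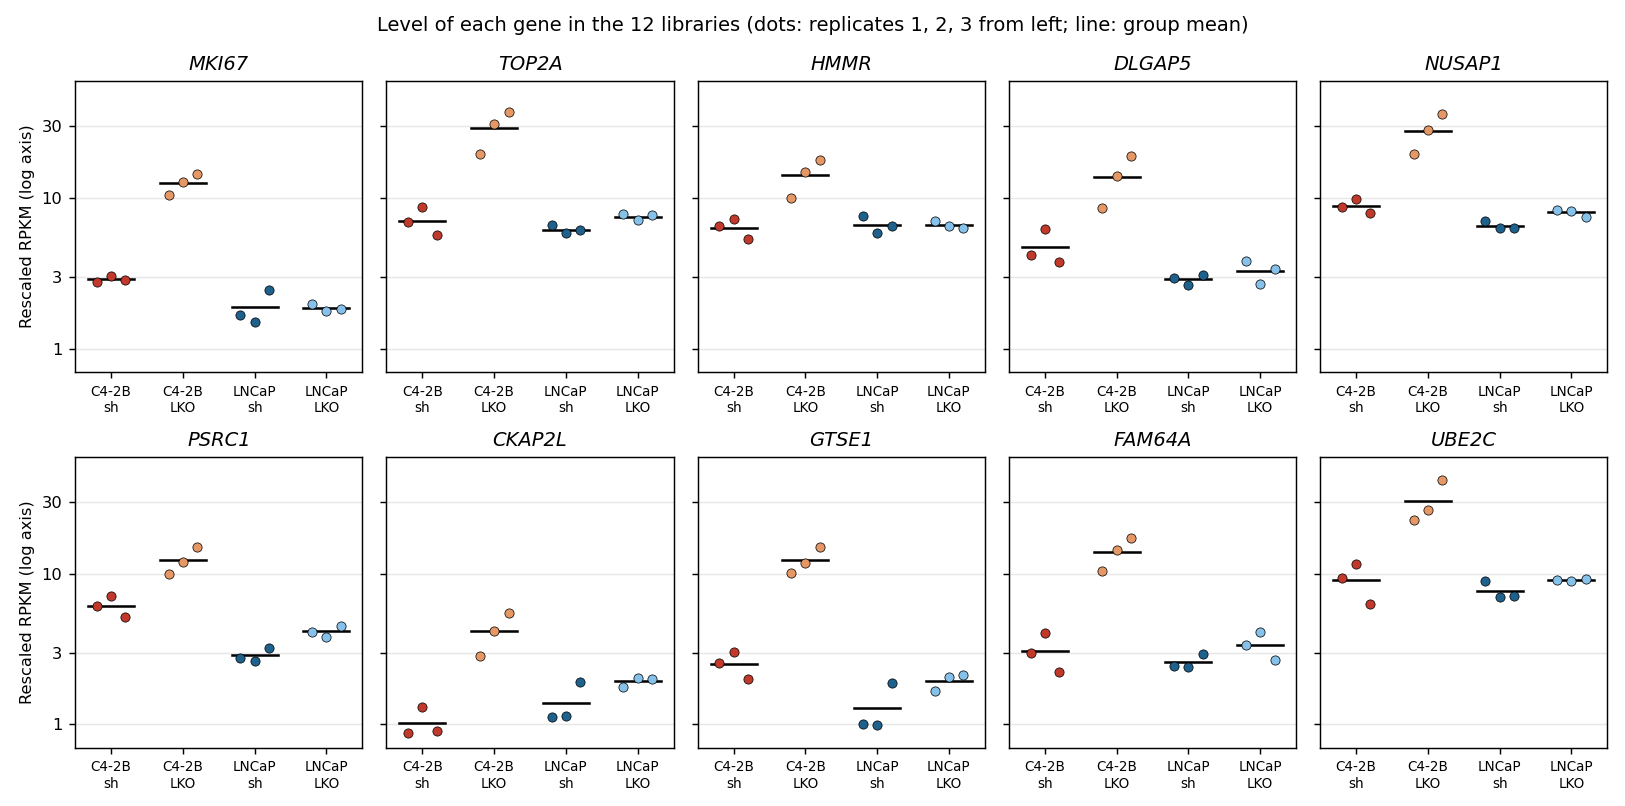
Rescaled RPKM of the 10 genes in the 12 libraries on a log axis, with 1 dot a library (replicates 1, 2 and 3 from the left) and a line at the group mean. The C4-2B-EnzR shCXCR7 libraries lie below all C4-2B-EnzR LKO libraries for each of the 10 genes, while the LNCaP-EnzR groups lie closer to each other. Values were rescaled within each line, so levels are compared within a line here.

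Within each C4-2B-EnzR group the 10 genes moved as one from library to library. LKO replicate 1 was the lowest of its group for 10 of 10 genes and LKO replicate 3 the highest for 10 of 10. In the shCXCR7 group, replicate 2 was the highest for 10 of 10 genes and replicate 3 the lowest for 8 of 10. The median over the 10 genes, relative to the LKO mean of each gene, was -1.77, -1.45 and -1.96 log2 units in the shCXCR7 libraries and -0.42, 0.05 and 0.37 in the LKO libraries. The other G2/M genes did likewise, at -1.16, -0.94 and -1.22 in shCXCR7 and -0.34, 0.03 and 0.32 in LKO libraries, and 14 housekeeping genes ran from 0.00 to 0.05 in shCXCR7 and from -0.10 to 0.12 in LKO libraries. The share of reads in genes was 73.8%, 74.4% and 72.8% in the shCXCR7 and 68.7%, 73.6% and 75.5% in the LKO libraries. Among LKO libraries it was lowest and highest in the same libraries as the 10 genes. Among shCXCR7 libraries it was highest in replicate 2, as were the 10 genes, and lowest in replicate 3, as were 8 of them. The part of this share in their spread was not tested. Without LKO replicate 3 the median fold change of the 10 was -1.50, and without LKO replicate 1 it was -1.95.

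In LNCaP-EnzR cells the shCXCR7 and LKO values of the 10 genes lay closer together. Their median log2 fold change was -0.28, beside 0.02 over all 13167 genes tested, and the largest fall was -0.56, for GTSE1. An adjusted p under 0.05 was reached by 3 of the 10 as lower (PSRC1, NUSAP1 and TOP2A) and by 0 as higher, while 21.2% of all genes passed as lower and 19.2% as higher. Groups did not overlap for 4 of the 10 (the same 3 and UBE2C), against 25.9% of all genes lower without overlap. Without shCXCR7 replicate 3, MKI67, CKAP2L, GTSE1 and FAM64A also lay lower without overlap, and HMMR and DLGAP5 still overlapped. The share of all genes was not counted for those fewer libraries, where groups part more easily. Without shCXCR7 replicate 3, the library that stood apart, 5 of the 10 passed, with GTSE1 (-0.83 ± 0.15) and CKAP2L (-0.68 ± 0.13) added, at a median of -0.26. The count was 1 without LKO replicate 1 or without shCXCR7 replicate 2, 2 without LKO replicate 2, and 0 on the values as deposited. Of all genes, 3068 of 12833 passed as lower without shCXCR7 replicate 3 and 2349 of 12994 without LKO replicate 1. The numbers were 2410 of 12880 without shCXCR7 replicate 2, 2244 of 13000 without LKO replicate 2 and only 371 of 13167 as deposited.

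MKI67 had 1.68, 1.505 and 2.47 RPKM in shCXCR7 and 1.99, 1.77 and 1.84 RPKM in LKO libraries of LNCaP-EnzR. Its highest shCXCR7 value was in replicate 3, the other 2 lay below all LKO libraries, and the log2 fold change was -0.01 ± 0.18, or -0.20 ± 0.13 without that replicate. TOP2A stood at 6.59, 5.83 and 6.16 RPKM in shCXCR7 and 7.79, 7.13 and 7.69 RPKM in LKO libraries (-0.27 ± 0.08), a small step without overlap. For HMMR the values were 7.64, 5.83 and 6.53 RPKM in shCXCR7 and 7.104, 6.53 and 6.34 RPKM in LKO libraries, which overlapped fully (-0.01 ± 0.10, 95% interval -0.24 to 0.22).

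DLGAP5 had 2.97, 2.66 and 3.097 RPKM in shCXCR7 and 3.803, 2.71 and 3.403 RPKM in LKO libraries, with overlap (-0.16 ± 0.13). NUSAP1 had 7.09, 6.31 and 6.301 RPKM in shCXCR7 and 8.402, 8.24 and 7.46 RPKM in LKO libraries, without overlap (-0.28 ± 0.08). PSRC1, at 2.76, 2.64 and 3.24 RPKM in shCXCR7 and 4.11, 3.83 and 4.49 RPKM in LKO libraries, also had no overlap (-0.49 ± 0.11). CKAP2L, the microtubule protein of low level, stood at 1.11, 1.13 and 1.91 RPKM in shCXCR7 and 1.78, 2.03 and 2.004 RPKM in LKO libraries (-0.45 ± 0.20), and only replicate 3 of the knockdown reached the LKO range.

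The same held for GTSE1, with 1.004, 0.991 and 1.88 RPKM in shCXCR7 and 1.67, 2.07 and 2.12 RPKM in LKO libraries (-0.56 ± 0.23). FAM64A had 2.44, 2.396 and 2.94 RPKM in shCXCR7 and 3.37, 4.08 and 2.69 RPKM in LKO libraries (-0.34 ± 0.15). Here too only replicate 3 of the knockdown reached the LKO range, where it lay above LKO replicate 3. UBE2C stood at 8.97, 7.002 and 7.18 RPKM in shCXCR7 and 9.16, 8.99 and 9.305 RPKM in LKO libraries (-0.25 ± 0.10), close together without overlapping. When the median background of replicate 3 was subtracted from that library, an alternative chosen after its values were seen, the log2 fold change was -0.64 ± 0.19 for GTSE1, -0.53 ± 0.16 for CKAP2L and -0.06 ± 0.15 for MKI67.

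**Figure D3:**
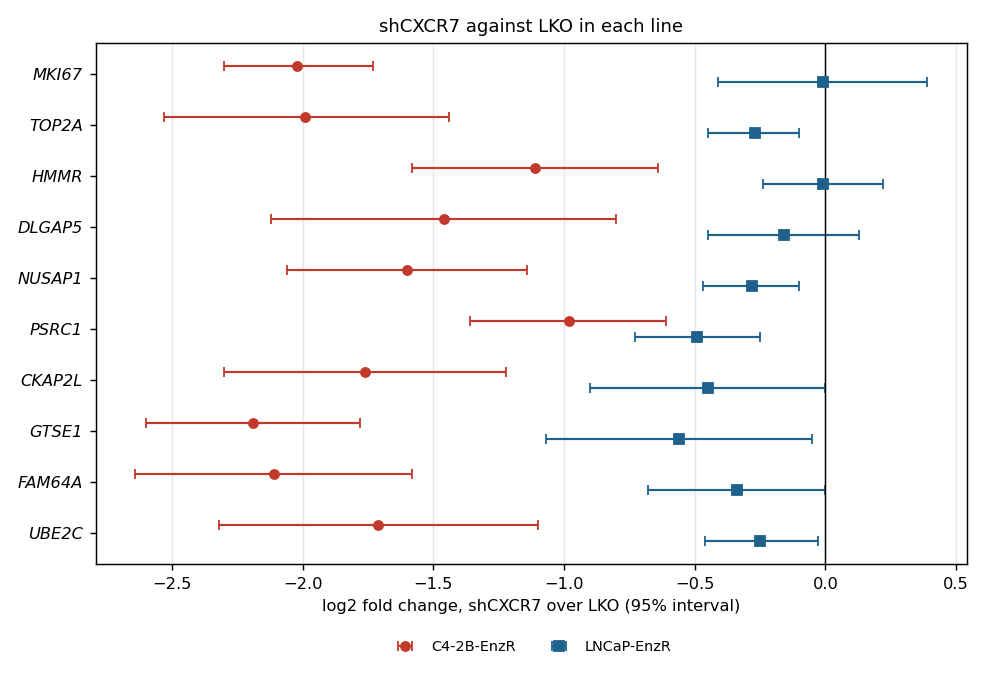
Log2 fold change of shCXCR7 over LKO with its 95% interval for the 10 genes, in C4-2B-EnzR (red circles) and LNCaP-EnzR (blue squares). The C4-2B-EnzR values run from -2.19 to -0.98 and the LNCaP-EnzR values from -0.56 to -0.01.

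Set side by side, the fold change in C4-2B-EnzR was below that in LNCaP-EnzR for each of the 10 genes, by a median difference of -1.39 log2 units beside -0.02 over all 14202 genes tested. The difference passed an adjusted p under 0.05 for 9 of the 10 genes, the exception being PSRC1 at -0.48 ± 0.21, and 5.96% of all genes passed in this direction. Without LNCaP-EnzR shCXCR7 replicate 3 the median was -1.35 and 8 genes passed, DLGAP5 (-1.26 ± 0.39) no longer among them. In that fit 873 of all 14010 genes passed in this direction. The knockdown itself was not equal: the log2 fold change of ACKR3 was -1.97 ± 0.09 in C4-2B-EnzR and -1.24 ± 0.11 in LNCaP-EnzR. That is a difference of -0.72 ± 0.15, and its part in the differences of the 10 genes was not tested. The differences of the 10 genes are built on the contrasts that chose them and are given as a description.

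The 2 lines were also set side by side under the same vector. Both LKO groups and both shCXCR7 groups belong to the knockdown contrasts that were known when the genes were chosen, so the differences between lines are a description too and no p of the 10 genes is given. In control (LKO) cells all 10 genes were higher in C4-2B-EnzR than in LNCaP-EnzR, each past the threshold of 0.05, where 32.9% of all 13376 genes passed as higher. The 10 groups did not overlap either, as for 35.5% of all genes in this direction, and the median log2 difference was 1.52, beside 0.00 over all genes. Values in the next sentences were rescaled over the 6 libraries compared and are mean ± SD of 3 libraries. MKI67 averaged 11.99 ± 1.88 RPKM in C4-2B-EnzR and 2.18 ± 0.139 RPKM in LNCaP-EnzR, the largest difference of the 10 (2.32 ± 0.12 on the log2 scale). GTSE1 averaged 11.8 ± 2.298 RPKM in C4-2B-EnzR and 2.27 ± 0.281 RPKM in LNCaP-EnzR (2.24 ± 0.15). For both genes every C4-2B-EnzR library was several times any LNCaP-EnzR library.

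TOP2A averaged 27.9 ± 8.26 RPKM in C4-2B-EnzR and 8.78 ± 0.451 RPKM in LNCaP-EnzR, and its log2 difference of 1.60 ± 0.20 was close to those of FAM64A (1.69 ± 0.20), DLGAP5 (1.65 ± 0.26), NUSAP1 (1.45 ± 0.19), UBE2C (1.38 ± 0.19) and PSRC1 (1.23 ± 0.14). The smallest differences were those of HMMR (0.75 ± 0.18) and CKAP2L (0.70 ± 0.21). CKAP2L averaged 3.95 ± 1.23 RPKM in C4-2B-EnzR and 2.26 ± 0.156 RPKM in LNCaP-EnzR, and it no longer passed the threshold when LNCaP-EnzR LKO replicate 1 was left out. The targeted gene ran the other way: ACKR3 averaged 81.2 ± 0.949 RPKM in C4-2B-EnzR and 136 ± 6.53 RPKM in LNCaP-EnzR (-0.74 ± 0.06).

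After knockdown the lines stood closer together in these genes, while ACKR3 averaged 18.6 ± 1.99 RPKM in C4-2B-EnzR and 51.5 ± 7.74 RPKM in LNCaP-EnzR. In shCXCR7 cells, 2 of the 10 genes passed as higher in C4-2B-EnzR than in LNCaP-EnzR and 0 as lower, where 26.9% and 26.5% of all 13609 genes passed in these directions, and the median log2 difference over the 10 was 0.04, beside 0.00 over all genes. PSRC1 averaged 5.24 ± 0.8199 RPKM in C4-2B-EnzR and 2.995 ± 0.292 RPKM in LNCaP-EnzR (0.75 ± 0.13). GTSE1 averaged 2.17 ± 0.441 RPKM in C4-2B-EnzR and 1.34 ± 0.512 RPKM in LNCaP-EnzR (0.63 ± 0.24), with overlap. Without LNCaP-EnzR shCXCR7 replicate 3, 3 of the 10 genes passed, all higher in C4-2B-EnzR (PSRC1 0.82 ± 0.13, GTSE1 0.89 ± 0.18 and MKI67 0.51 ± 0.12). In that fit 4152 of all 13187 genes passed as higher and 3941 as lower. GTSE1 lay just past the threshold and did not pass without replicate 1 or replicate 2 of either line, with no filter, with a filter at 1 RPKM, with no variance trend or with a replicate block. In those settings 1 gene passed as higher, and HMMR passed as lower without replicate 2 of either line, with the filter at 1 RPKM and with the block. Of all genes, 3113 of 13181 to 3266 of 13261 passed as higher without replicate 1 or 2 of either line. As lower, 2933 of 13265 to 3054 of 13181 passed. With the filter at 1 RPKM 3607 of 12253 were higher and 3547 lower, and with the block 3723 of 13609 and 3654. With no filter 3221 of 24957 were higher and 2779 lower, and with no variance trend 3418 of 13609 and 3460.

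For the other 8 genes the interval says how far the lines could still differ. MKI67 averaged 2.49 ± 0.114 RPKM in C4-2B-EnzR and 1.96 ± 0.507 RPKM in LNCaP-EnzR, with a 95% interval of -0.05 to 0.71 log2 units. The interval was -0.41 to 0.21 for TOP2A, -0.48 to 0.36 for FAM64A, -0.50 to 0.36 for UBE2C and -0.08 to 0.37 for NUSAP1, which leaves out a difference as large as that in LKO cells, also without LNCaP-EnzR shCXCR7 replicate 3. DLGAP5 had an interval of -0.01 to 0.75, and its 3 C4-2B-EnzR libraries lay above the LNCaP-EnzR ones, as did those of PSRC1. CKAP2L lay below without overlap, and 31.0% of all genes were higher and 31.2% lower without overlap. HMMR (-0.63 to -0.04) and CKAP2L (-1.13 to 0.01) leaned to lower values in C4-2B-EnzR, and neither passed the threshold. Without LNCaP-EnzR shCXCR7 replicate 3 the interval was -0.73 to -0.01 for HMMR, -0.81 to 0.07 for CKAP2L and -0.06 to 0.86 for DLGAP5.

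**Figure D4:**
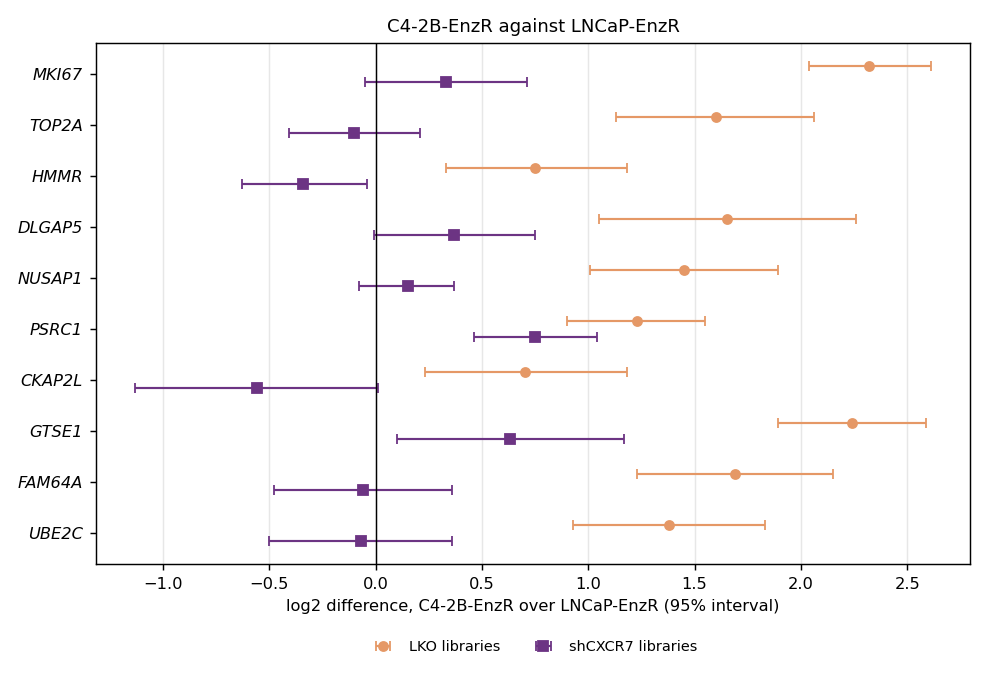
Log2 difference of C4-2B-EnzR over LNCaP-EnzR with its 95% interval for the 10 genes, in LKO libraries (orange circles) and shCXCR7 libraries (purple squares). LKO differences run from 0.70 to 2.32 and shCXCR7 differences from -0.56 to 0.75.

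The order of the 10 genes by level per length was much alike across groups. UBE2C, TOP2A and NUSAP1 held the first 3 places in C4-2B-EnzR under shCXCR7 and under LKO and in LNCaP-EnzR under LKO, and in LNCaP-EnzR under shCXCR7 HMMR took the second place with overlap with both neighbours. In C4-2B-EnzR LKO libraries there were only 2 steps without overlap in the order, one between NUSAP1 (28.1 ± 8.22 RPKM) and HMMR (14.3 ± 3.93 RPKM) and one between PSRC1 (12.4 ± 2.51 RPKM) and CKAP2L (4.15 ± 1.31 RPKM). MKI67 and GTSE1 were level with HMMR, FAM64A, DLGAP5 and PSRC1 in those LKO libraries, where neighbours from HMMR to PSRC1 all overlapped. In the C4-2B-EnzR shCXCR7 libraries MKI67 (2.897 ± 0.139 RPKM) and GTSE1 (2.52 ± 0.523 RPKM) stood below HMMR (6.35 ± 0.963 RPKM) and PSRC1 (6.103 ± 0.979 RPKM) without overlap, as they did in LNCaP-EnzR.

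The other genes of the wave were read from the published G2/M and S phase lists shipped with Seurat and from textbook lists of partners, where fell and rose mean an adjusted p under 0.05 (limma, over all genes). The counts stand beside the 21.3% lower and 21.2% higher of all genes in C4-2B-EnzR and the 21.2% lower and 19.2% higher in LNCaP-EnzR. Counts without LNCaP-EnzR shCXCR7 replicate 3, here and below, stand beside 3068 lower and 2888 higher of all 12833 genes in that fit. Of 42 other G2/M phase genes, 38 fell and 0 rose in C4-2B-EnzR (median -1.12), and 14 fell and 3 rose in LNCaP-EnzR (median -0.17), or 15 and 3 without shCXCR7 replicate 3 (median -0.17). They were led in C4-2B-EnzR by AURKB, the kinase of the chromosomal passenger complex (-2.16 ± 0.26), the kinetochore protein CENPF (-2.09 ± 0.17), the survivin gene BIRC5 (-2.06 ± 0.19) and the kinetochore gene NUF2 (-1.83 ± 0.27). CENPF (-0.37 ± 0.12), BIRC5 (-0.64 ± 0.08) and NUF2 (-0.58 ± 0.13) also fell in LNCaP-EnzR, and AURKB, at -0.35 ± 0.17, passed only without that replicate (-0.52 ± 0.15). Of 43 S phase genes, 36 fell and 0 rose in C4-2B-EnzR (median -0.92), and of the 42 tested in LNCaP-EnzR 10 fell and 2 rose (median -0.08), or 12 and 5 without shCXCR7 replicate 3 (median -0.10). The lowest in C4-2B-EnzR were the replication factor CDC45 (-2.29 ± 0.16), the ribonucleotide reductase subunit RRM2 (-2.24 ± 0.24), the nuclease EXO1 (-2.12 ± 0.28) and TYMS, the thymidylate synthase (-2.09 ± 0.10). RRM2 (-0.49 ± 0.09) and TYMS (-0.94 ± 0.14) also fell in LNCaP-EnzR, EXO1 (-0.29 ± 0.18) did not pass, and CDC45 (-0.35 ± 0.20) passed only without shCXCR7 replicate 3 (-0.57 ± 0.16).

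**Figure D5:**
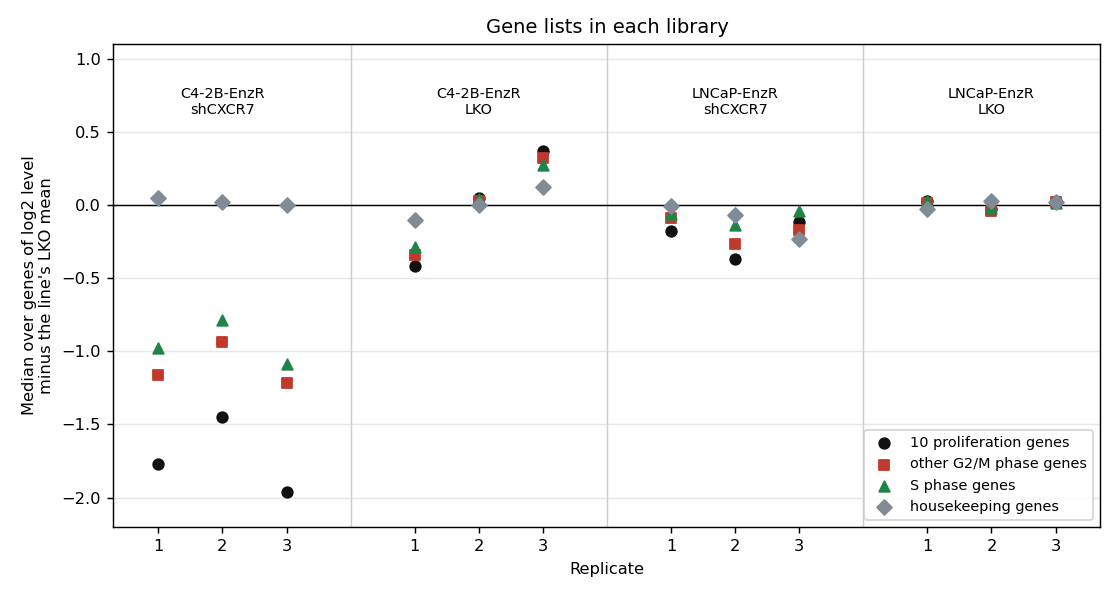
Median over the genes of a list of the log2 level relative to the LKO mean of the line, for each of the 12 libraries, with the 10 proliferation genes (black circles), 42 other G2/M phase genes (red squares), S phase genes (green triangles) and 14 housekeeping genes (grey diamonds). In C4-2B-EnzR the 10 genes lie at -1.96 to -1.45 in shCXCR7 and at -0.42 to 0.37 in LKO libraries, and in LNCaP-EnzR at -0.37 to -0.12 in shCXCR7 and -0.03 to 0.03 in LKO libraries.

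Partners by function were less uniform, and some genes stand on more than 1 list. Of 30 microtubule and spindle assembly genes, 19 fell and 1 rose in C4-2B-EnzR (median -0.93), and of 29 tested in LNCaP-EnzR 10 fell and 6 rose (median -0.09), as did 10 and 6 without shCXCR7 replicate 3 (median -0.10). CEP55, which acts in the final cut between daughter cells, averaged 1.897 ± 0.113 RPKM in shCXCR7 and 12.1 ± 2.79 RPKM in LKO libraries of C4-2B-EnzR (-2.50 ± 0.16), and the midzone crosslinker PRC1 averaged 4.72 ± 0.971 RPKM in shCXCR7 and 25.7 ± 5.93 RPKM in LKO libraries (-2.38 ± 0.20). ASPM, of the spindle pole (-2.13 ± 0.13), and the kinesin KIF18B (-2.02 ± 0.18) were next. In LNCaP-EnzR CEP55 (-0.60 ± 0.14) and PRC1 (-0.95 ± 0.12) fell too, ASPM (-0.12 ± 0.35) did not pass, and KIF18B (-0.44 ± 0.26) passed only without shCXCR7 replicate 3 (-0.77 ± 0.17). Of 21 genes of condensin and the chromosome scaffold, 15 fell and 0 rose in C4-2B-EnzR (median -0.54), led by the condensin subunits NCAPH (-2.11 ± 0.20), NCAPG (-1.50 ± 0.22) and NCAPG2 (-1.20 ± 0.14) and the chromosome kinesin KIF4A (-1.64 ± 0.20). In LNCaP-EnzR 6 of the 21 fell and 5 rose (median -0.08), or 7 and 5 without shCXCR7 replicate 3 (median -0.03), and of these 4 genes KIF4A fell (-0.49 ± 0.16), with NCAPH added without that replicate (-0.61 ± 0.17).

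Of 22 subunits and regulators of the anaphase-promoting complex, with which UBE2C works, 10 fell and 4 rose in C4-2B-EnzR (median -0.17) and 5 fell and 3 rose in LNCaP-EnzR (median -0.01), or 4 and 5 without shCXCR7 replicate 3 (median 0.02). The 4 with the largest falls were the activator CDC20 (-1.65 ± 0.15), the checkpoint genes BUB1B (-1.45 ± 0.18) and MAD2L1 (-1.13 ± 0.19), and UBE2S, the enzyme that extends the ubiquitin chain UBE2C begins (-1.25 ± 0.12). In LNCaP-EnzR UBE2S (-1.27 ± 0.08) and CDC20 (-0.41 ± 0.08) fell, and the log2 fold changes of BUB1B (0.03 ± 0.15) and MAD2L1 (-0.03 ± 0.14) did not pass. Of 17 genes of the DREAM, B-MYB and FOXM1 regulators, 7 fell and 1 rose in C4-2B-EnzR (median -0.03) and 1 fell and 3 rose in LNCaP-EnzR (median 0.14), or 1 and 6 without shCXCR7 replicate 3 (median 0.12). MYBL2, which encodes B-MYB, averaged 6.53 ± 1.21 RPKM in shCXCR7 and 23.5 ± 6.52 RPKM in LKO libraries of C4-2B-EnzR (-1.79 ± 0.20), and FOXM1 averaged 7.95 ± 0.716 RPKM in shCXCR7 and 19.8 ± 4.76 RPKM in LKO libraries (-1.27 ± 0.16). In LNCaP-EnzR their log2 fold changes were 0.05 ± 0.09 and -0.05 ± 0.09, and neither passed. LIN9, a subunit shared by these complexes (-0.86 ± 0.16), and the E2F partner TFDP1 (-0.78 ± 0.09) fell in C4-2B-EnzR too, and in LNCaP-EnzR TFDP1 fell (-0.45 ± 0.07) and LIN9 (-0.07 ± 0.14) did not pass.

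Cell cycle inhibitors moved both ways: 5 of 16 fell and 4 rose in C4-2B-EnzR (median -0.05), and 6 fell and 4 rose in LNCaP-EnzR (median -0.03), also without shCXCR7 replicate 3 (median -0.01). CDKN2B, which encodes the CDK4 and CDK6 inhibitor p15, rose after knockdown in C4-2B-EnzR (1.48 ± 0.21), as did the antiproliferative genes BTG2 (0.78 ± 0.12) and TOB2 (0.75 ± 0.08), while SESN1, a p53 target, fell (-0.71 ± 0.09). BTG2 (0.37 ± 0.10) and TOB2 (0.79 ± 0.09) rose and SESN1 (-1.63 ± 0.11) fell in LNCaP-EnzR as well, and CDKN2B, at 0.68 ± 0.27, did not pass there. Of 14 housekeeping genes, 5 fell and 5 rose in C4-2B-EnzR (median 0.05), and 5 fell and 4 rose in LNCaP-EnzR (median -0.09), also without shCXCR7 replicate 3 (median -0.01). GUSB (-1.40 ± 0.09) and TFRC (-1.13 ± 0.07) fell and RPLP0 (0.61 ± 0.09) and PGK1 (0.48 ± 0.08) rose in C4-2B-EnzR, and each of these 4 passed in the same direction in LNCaP-EnzR, so single housekeeping genes were no steady scale in these cells.

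The genes whose profile over the 12 libraries was nearest to the mean of the 10 were HJURP, CDC20, ZNF367, PLK1, CDCA3 and TPX2, with root mean square differences of 0.097, 0.098, 0.109, 0.114, 0.116 and 0.118 log2 units, beside a median of 0.91 over the 12537 genes tested in both lines. HJURP loads the centromere histone, PLK1 is a mitotic kinase and TPX2 nucleates spindle microtubules. In C4-2B-EnzR HJURP averaged 3.04 RPKM in shCXCR7 and 11.2 RPKM in LKO libraries, and its log2 fold change was -1.79 ± 0.20, with -0.38 ± 0.12 in LNCaP-EnzR. Of the 10 genes, NUSAP1 was nearest to their own mean (0.105, rank 3 of 12537), then UBE2C (0.143) and CKAP2L (0.156), and PSRC1 was farthest (0.377, rank 173). Over the 11 libraries without LNCaP-EnzR shCXCR7 replicate 3, CDC20, HJURP and TPX2 stayed among the 6 nearest, and KIF4A (0.083), TACC3 and GINS2 took the places of ZNF367, PLK1 and CDCA3.

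Markers of the cells were read beside these values. All 10 luminal prostate markers were at 1 RPKM or more in each group, with a summed level of 760.8 to 778.9 RPKM in shCXCR7 and 948.5 to 985.4 RPKM in LKO libraries of C4-2B-EnzR, and of 598.2 to 707.2 RPKM in shCXCR7 and 761.3 to 777.1 RPKM in LKO libraries of LNCaP-EnzR. Of these 10 markers 7 fell and 3 rose in C4-2B-EnzR (median -0.29). In LNCaP-EnzR 6 fell and 2 rose (median -0.27), also without shCXCR7 replicate 3 (median -0.23). The markers named next had the largest changes in C4-2B-EnzR. KLK3, which encodes PSA, fell in both lines (-1.78 ± 0.10 in C4-2B-EnzR and -1.79 ± 0.10 in LNCaP-EnzR). KLK2 (-1.54 ± 0.12) and TMPRSS2 (-1.79 ± 0.11), both androgen receptor targets, fell and the keratin KRT8 (0.71 ± 0.10) rose in C4-2B-EnzR, as in LNCaP-EnzR (-2.13 ± 0.27, -1.11 ± 0.07 and 0.30 ± 0.10 in this order). Of 10 neuroendocrine markers, only ENO2 and, after knockdown, SYP were at 1 RPKM or more; SYP rose and ENO2 fell in C4-2B-EnzR (2.43 ± 0.15 and -0.79 ± 0.07), and both passed in the same direction in LNCaP-EnzR (ENO2 at -1.08 ± 0.10). Of 10 fibroblast markers only COL1A1 reached 1 RPKM, and of 10 blood cell markers only CD68 and HBA1. In C4-2B-EnzR the fibroblast sum was 8.89 to 10.3 RPKM in shCXCR7 and 9.29 to 12.2 RPKM in LKO libraries, and the blood cell sum was 6.55 to 8.59 RPKM in shCXCR7 and 7.62 to 11.1 RPKM in LKO libraries. In LNCaP-EnzR shCXCR7 libraries the fibroblast sum was 3.95 to 4.13 RPKM in replicates 1 and 2 and 9.64 RPKM in replicate 3, the library with reads in genes at 0 elsewhere, against 3.56 to 3.92 RPKM in LKO libraries. The blood cell sum was 4.12 to 4.52 RPKM in shCXCR7 replicates 1 and 2 and 12.04 RPKM in replicate 3, against 5.05 to 6.06 RPKM in LKO libraries, and the luminal sum of the shCXCR7 group without replicate 3 was 699.1 to 707.2 RPKM. Markers at 0 in all 3 libraries of a group were 6 fibroblast and 3 blood cell markers in shCXCR7 and 5 and 4 in LKO cells of C4-2B-EnzR. In LNCaP-EnzR 4 fibroblast and 3 blood cell markers were at 0 in both shCXCR7 replicates 1 and 2, none in replicate 3, where only 1636 genes in all were at 0, and 5 and 4 in all LKO libraries. Any part of these markers in the values of the 10 genes was not tested.

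The counting method's use of strand is not given in the sources used here, and 5 of the 10 genes overlap another gene in GENCODE release 44. HMMR overlaps HMMR-AS1 and FAM64A overlaps PITPNM3 on the opposite strand, NUSAP1 overlaps OIP5 and OIP5-AS1, CKAP2L overlaps NT5DC4, and TOP2A holds a Y RNA. Their values may include reads of those genes. MKI67, DLGAP5, PSRC1, GTSE1 and UBE2C overlap no other gene.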

How the data were processed

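RNA-seq was done on 12 libraries in 4 groups of 3. Per the paper's methods, single-end NEBNext Ultra libraries were sequenced on an Illumina HiSeq instrument, and reads were mapped to GRCh38 (hg38) and counted per gene with STAR. The authors deposited 1 table of RPKM values, where the methods speak of FPKM made by an in-house script. Of its 26475 lines, 32 held no value and 4 repeated a symbol and were left out, which left 26439 genes. Each value is a whole multiple of what 1 read is worth, and whole reads were recovered for 25027 of 25028 genes above 0 (within 0.05 of a read). Depth is known from these reads, but the study's count test (DESeq2) was not rerun as the main result because the deposited unit is RPKM.

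RPKM values were divided by median-of-ratios factors, within each line for the knockdown and over the 6 libraries compared for the comparisons between lines. A gene was tested in a comparison when 3 or more of its libraries had 0.5 RPKM or more, and the test was made with limma 3.58.1 in R 4.3.3 (a variance trend, no covariate) on log2(RPKM + 0.25), with Benjamini-Hochberg adjustment over all genes tested and a threshold of 0.05. A log2 fold change on this scale understates the change of genes of low level. The difference between lines in fold change was an interaction term over 14202 genes and 12 libraries. Tables and figures were made with Python 3.11.15. The fits were tested on simulated data.

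The 10 genes and the 12 companion lists were chosen with earlier results of these data known. The genes named are the 10, ACKR3, up to 4 genes of each list with the largest fold change in C4-2B-EnzR among those past the threshold whose mean was 1 RPKM or higher, and the 6 other genes nearest to the mean profile of the 10. Distances were taken on log2(RPKM + 0.25), centred on the LKO mean of each line. Gene positions came from GENCODE release 44 and promoter sequences from RefSeq (GRCh38.p14). Alternatives were the values as deposited, quantile normalization, pseudocounts of 0.05 and 1 RPKM, no filter and a filter at 1 RPKM, no variance trend, a replicate block, voom on the recovered reads, leaving out each library, and a threshold of 2-fold with an adjusted p under 0.001. Subtracting the background of LNCaP-EnzR shCXCR7 replicate 3 and giving the lists, markers and profiles without that library were added after the values were seen.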

Additional observations from a re-analysis of the deposited data

Results flagged for a closer look

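The log2 fold change after knockdown differed between the lines for 9 of the 10 genes by an interaction term with an adjusted p under 0.05 (limma, 12 libraries). The value is the C4-2B-EnzR fold change minus the LNCaP-EnzR one, in log2 units. It was -2.00 for MKI67 and -1.70 for TOP2A among the chromosome genes. Among the spindle genes it was -1.10 for HMMR, -1.29 for DLGAP5, -1.31 for NUSAP1 and -1.30 for CKAP2L. For the genes of G2 and mitotic exit it was -1.62 for GTSE1, -1.76 for FAM64A and -1.46 for UBE2C. The genes were chosen with both contrasts known, so these values describe them and support nothing further. For ACKR3, the targeted gene, the value was -0.72, and its part in those of the 10 genes was not tested. In the fit of all 12 libraries 5.96% of all genes passed in the same direction. Without LNCaP-EnzR shCXCR7 replicate 3, 8 of the 10 passed, DLGAP5 no longer among them, as did 873 of all 14010 genes. On the values as deposited, 1 of the 10 (MKI67) passed, and 33 of all 14202 genes. With groups of 3 libraries, no single library could be tested against the others of its group.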

How the results depend on the processing

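In C4-2B-EnzR all 10 genes passed as lower under every alternative run with the threshold of 0.05, and 6 passed at 2-fold and an adjusted p under 0.001. Of all genes, the number lower at 0.05 ran from 2098 of 13104 without shCXCR7 replicate 1 to 3067 of 13352 with voom. With no filter on low values it was 2604 of 20217. The median log2 fold change of the 10 ran from -1.95 to -1.50 when 1 library was left out. In LKO cells 9 to 10 genes were higher in C4-2B-EnzR when 1 library was left out, and 8 passed the stricter threshold. Of all genes, 3712 of 12832 to 4172 of 12800 were higher when 1 library was left out. The share of all genes at the stricter threshold was not counted in either comparison, so nothing is read from those counts.

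The LNCaP-EnzR count of 3 depended on the processing, and the cause was not tested. It was 0 on the values as deposited, 6 with quantile normalization, 5 with voom on the recovered reads, 5 with the background of shCXCR7 replicate 3 subtracted and 0 at 2-fold and an adjusted p under 0.001. Of all 13167 genes, 371 passed as lower as deposited, 2914 with quantile normalization, 2877 with voom and 3032 with the background subtracted. Leaving out 1 library gave 1 to 5, with 1 without LKO replicate 1 or shCXCR7 replicate 2 and 5 without shCXCR7 replicate 3. The rescaling factor was 0.493 for shCXCR7 replicate 3 and 1.11 to 1.21 for the other LNCaP-EnzR libraries. Without rescaling, ACKR3 itself did not pass (-1.58 ± 0.59, against -1.24 ± 0.11 with it). As deposited, the median of all genes moved to -0.31 and that of the 10 to -0.61. The same values gave a median difference between the lines of -1.04 for the 10, with 33 of all genes lower and 20 higher, against 847 and 818 after rescaling.

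Of the comparison between lines under shCXCR7, the count of 2 became 4 with quantile normalization (1 lower), 1 with no filter on low values, 1 with no variance trend, 5 with voom (2 lower), 4 with the background subtracted (1 lower) and 0 at the stricter threshold. Of all 13609 genes, 4304 were lower and 3969 higher with quantile normalization, 3716 and 3861 with voom, and 4031 and 4054 with the background subtracted. With no variance trend 3460 were lower and 3418 higher, and with no filter 2779 and 3221 of 24957. Leaving out 1 library gave 1 to 3, with 1 without replicate 1 of either line, and without replicate 2 of either line or with a filter at 1 RPKM the count of 2 held 1 lower gene (HMMR). Of all genes, 3113 of 13181 to 4152 of 13187 were higher and 2933 of 13265 to 3941 of 13187 lower when 1 library was left out. With the filter at 1 RPKM 3607 of 12253 were higher and 3547 lower. As deposited, 602 of all genes were lower and 1862 higher, against 3603 and 3664 after rescaling, and the median of the 10 was 0.49 beside 0.44 over all genes.

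Labels give the replicates of each group the numbers 1 to 3, but same-numbered libraries did not deviate together (correlations over genes of 0.06, 0.06 and -0.11 in C4-2B-EnzR and of -0.02, 0.02 and -0.08 in LNCaP-EnzR). With a replicate block, 10 genes passed in C4-2B-EnzR (median -1.73), 3 in LNCaP-EnzR (median -0.28), 10 between LKO lines and 2 between shCXCR7 lines (1 lower), with a median difference of -1.39. Of all genes, 2430 of 13352 were lower in C4-2B-EnzR with the block and 2758 of 13167 in LNCaP-EnzR. Between LKO lines 4261 of 13376 were higher, and between shCXCR7 lines 3723 of 13609 were higher and 3654 lower. The number of all genes called in C4-2B-EnzR was 4741 with the block and 5678 without it. Genes of few reads, such as CKAP2L, GTSE1 and FAM64A, have counting errors that limit small differences.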
